A study of Rattus norvegicus with 15 samples.

Results

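Lung RNA of a rat model of chronic obstructive pulmonary disease (COPD) was compared with that of normal lung. The model group holds 5 libraries and the control group 5, together 10 of the 15 libraries of the study, and every library was placed by the group word in its title. All libraries are labelled as lung of wild-type Rattus norvegicus. Model rats received lipopolysaccharide (LPS) and smoke by way of the trachea, and control rats are labelled as normal. The other 5 libraries, from rats given the same exposure and the herbal Wendan Decoction by gavage, entered the fit for the estimate of spread and are not described. The sources used here do not give the strain, age, dose, length of exposure or day of sampling. Nothing in the labels says that the libraries of a group came from separate rats, so the p-values measure the spread between these libraries, which may be technical.

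LPS is a component of the outer membrane of Gram-negative bacteria. In lung it is sensed by Toll-like receptor 4 on macrophages and epithelium, which drives NF-kB, the release of CXC chemokines and the entry of neutrophils from blood. Smoke brings oxidants and xenobiotics, which are met by cytochrome P450 enzymes and by glutathione and thioredoxin systems. The balance of leukocyte proteases and their inhibitors is a classic theme of COPD research, because the alveolar wall is built on elastin and type IV collagen.

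The lung of the model carried very high transcript levels of neutrophil and acute-phase genes and low levels of markers of alveolar type 1 cells, smooth muscle and pericytes and of genes of xenobiotic metabolism. The genes with the largest rise encoded the calprotectin subunits S100a8 and S100a9, and the named gene with the largest fall encoded the flavin monooxygenase Fmo2. Levels are FPKM, fragments divided by transcript length and by library size, and differences are COPD minus control on the log2(FPKM + 1) scale, which understates the change of low genes. Genes with an adjusted p under 0.05 in limma count as called. Of 22250 genes, 13172 reached 1 FPKM in at least 5 of the 15 libraries and were tested. With the values as deposited, 1084 genes (8.23% of those tested) were higher in COPD and 8749 (66.4%) were lower. After median-of-ratios scaling, which sets the typical gene of each library level with the others, 3947 (30.0%) were higher and 4296 (32.6%) were lower. The scaling moved the median of all tested genes from -0.81 to -0.05, and differences are read below against these medians. After scaling, the medians of smooth muscle and pericyte markers (-0.99) and of xenobiotic genes (-0.95) lay near that of long housekeeping transcripts (-0.84). Both readings called 1084 genes higher and 4296 lower, again 8.23% and 32.6% of those tested. Another 515 genes were lower as deposited and higher after scaling. The most abundant of these was Actb, the cytoplasmic actin, at -0.44 as deposited and 0.49 scaled, and without COPD 5 its value as deposited was -0.39 (adjusted p = 0.055). Below, "rose" and "fell" are used of genes called in the same direction by both readings.

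**Figure D1:**
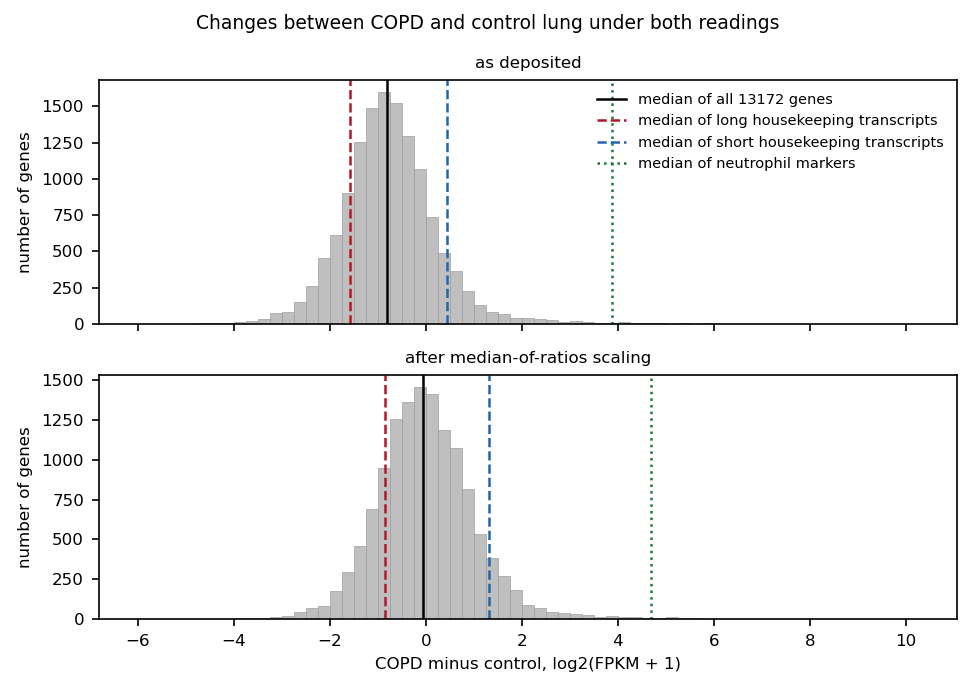
Number of genes (y axis) by the difference COPD minus control in log2(FPKM + 1) (x axis), as deposited (upper panel) and after median-of-ratios scaling (lower panel). The black line marks the median of all 13172 genes (-0.81 and -0.05), the dashed lines the medians of long (red) and short (blue) housekeeping transcripts, and the dotted green line that of the neutrophil markers (3.87 and 4.69).

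The libraries differed in make-up as well as in single genes. Genes encoded in mitochondrial DNA made up 33.7 to 65.0% of the FPKM sum in COPD and 5.19 to 9.62% in control. The 50 most abundant genes held 53.0 to 72.7% of it in COPD and 24.3 to 30.5% in control, and 10892 to 11560 genes against 13042 to 13232 reached 1 FPKM. Housekeeping transcripts moved with their length. Of 41 long ones, 31 were lower and 1 was higher after scaling (median -0.84), and of 44 short ones, 43 were higher and none was lower (median 1.32). The groups did not overlap in any of these measures, nor in the scaling factor, and each reached p = 0.00794 (exact permutation test, two-sided, n = 5 each, adjusted over 5 measures), the smallest p that 5 against 5 allows. With mitochondrially encoded genes left out of the library sum, 1479 genes were higher and 7813 lower, against 1084 and 8749 as deposited. The part of transcript length and of the mitochondrial share in the gene results was not otherwise tested. Of the genes called under both readings, 233 rose by more than the highest of the short housekeeping transcripts (Snrpf, 2.57 after scaling) and 176 fell by more than the lowest of the long ones (Dync1h1, -2.24). Relative depth, read from the steps between low FPKM values, lay between 0.877 and 1.11 of that of control 2 in all 10 libraries. Only ratios near 1 were kept for this reading, so it could not have shown a large difference in depth. It rested on 154 to 249 genes in the COPD libraries. COPD 5 stood apart from its group: its rank correlation with the other COPD libraries was 0.873 to 0.887, where COPD 1 to 4 reached 0.962 to 0.975 with their nearest neighbour. COPD 1 had the highest mitochondrial share.

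S100a8, which with S100a9 forms the calcium- and zinc-binding protein that fills the neutrophil cytoplasm, stood at 18.3, 24.9, 5.67, 9.83 and 12.6 FPKM in control 1 to 5 and at 4747, 15681, 10144, 8617 and 3076 FPKM in COPD 1 to 5. S100a9 stood at 21.7 to 46.7 FPKM in control and at 7013 to 26030 in COPD, where it was among the 10 most abundant genes. Every COPD library was far above every control library. The difference of S100a8 after scaling was 9.94 (SE 0.54, adjusted p = 1.1e-09). Csf3r, the receptor of the granulocyte growth factor, stood at 9.77, 6.48, 9.16, 8.18 and 6.65 FPKM in control and 159, 301, 234, 339 and 223 FPKM in COPD, a difference of 5.64 (SE 0.22, adjusted p = 4.7e-11), again without overlap. Its ligand Csf3 was at 0 in 4 control libraries and 0.0637 FPKM in the other one, and stood at 20.5, 11.6, 5.21, 13.6 and 136 FPKM in COPD. Csf3 was the 1 gene in the file that lay under 0.1 FPKM in every control library and at 2 FPKM or more in every COPD library. The reverse held for 1 gene, the unnamed locus AABR07065789.1, which stood at 2.04 to 13.2 FPKM in control and was listed at 0 in every COPD library.

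Of 22 neutrophil markers measured, 19 were higher after scaling and none was lower, and the same count of 19 was higher as deposited, with 1 lower. The summed level of the list was 234 to 329 FPKM in control and 15624 to 50997 in COPD. Mmp8, the neutrophil collagenase, rose by 8.09 (SE 0.31), Il1r2 by 7.42 (SE 0.39) and the chemokine receptor Cxcr2 by 5.40 after scaling. Mpo and Prtn3, which encode azurophil granule proteins made by precursors in bone marrow, and Ltf of the specific granules stayed under 1 FPKM in every library of both groups. In whole lung, more cells of a type and more RNA per cell cannot be told apart, and the same holds for every cell type below. The labelled tissue was checked on its own markers: Sftpc, Scgb1a1 and Lyz2 were among the 10 most abundant genes of control lung.

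**Figure D2:**
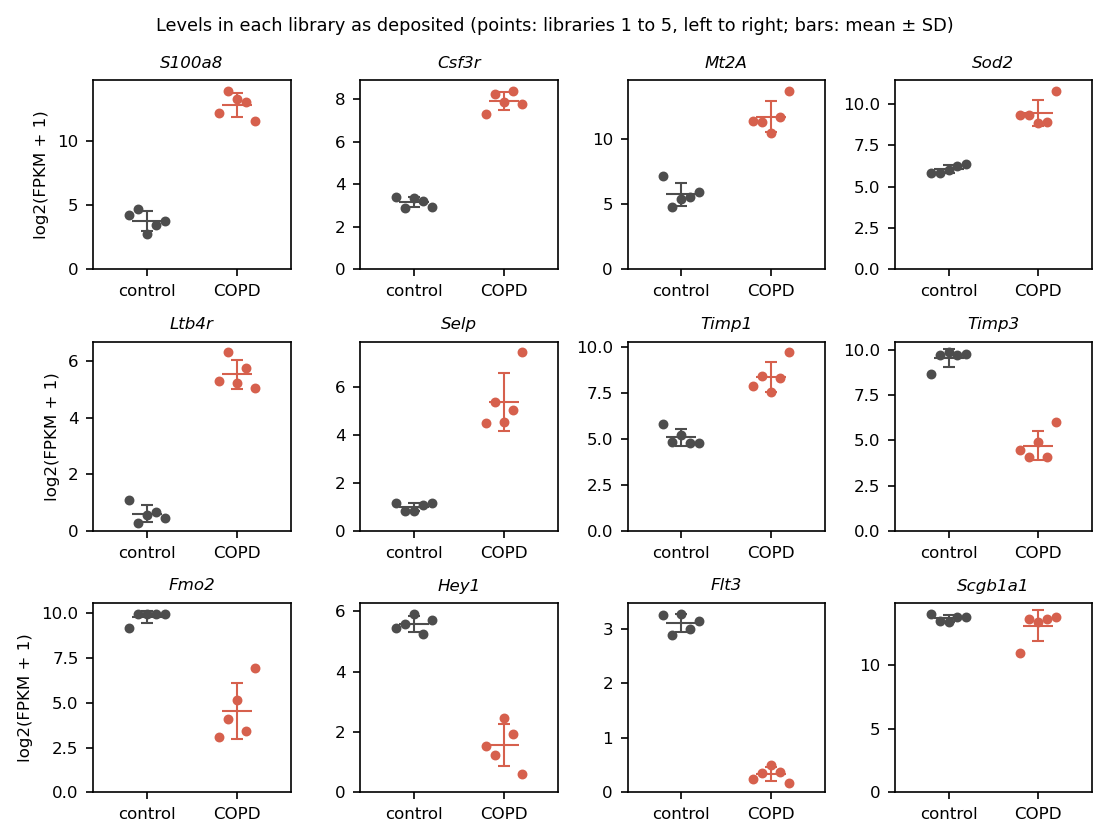
Levels of 12 genes as log2(FPKM + 1) in the 5 control and 5 COPD libraries, as deposited, with points for libraries 1 to 5 from left to right and bars for mean ± SD. S100a8, Csf3r, Mt2A, Sod2, Ltb4r, Selp and Timp1 lie higher in every COPD library, Timp3, Fmo2, Hey1 and Flt3 lie lower in every one, and Scgb1a1 overlaps between the groups.

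Genes of secreted acute-phase and iron-binding proteins were mostly higher. Of 16 measured, 13 were higher and 1 was lower after scaling, and 11 and 2 as deposited (medians 3.28 and 2.38). Orm1, a plasma glycoprotein that binds small hydrophobic molecules, stood at 0 to 0.461 FPKM in control and at 62.3, 154, 82.6, 167 and 50.8 FPKM in COPD, with a difference of 6.83 (SE 0.23, adjusted p = 1.1e-11). Hp, haptoglobin, rose by 4.99 and Lcn2, which binds bacterial siderophores, by 4.68 to a COPD mean of 3046 FPKM. The member that fell was Serpina1, the inhibitor of neutrophil elastase whose deficiency causes inherited emphysema in people: it stood at 14.9, 18.5, 6.17, 11.1 and 9.15 FPKM in control and 0.183, 0.242, 2.04, 0.712 and 1.24 FPKM in COPD, a difference of -2.20 (SE 0.34, adjusted p = 4.2e-05) without overlap.

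The chemokines that recruit neutrophils were among the 20 largest rises. Cxcl1 stood at 42.5, 17.1, 15.2, 12.3 and 11.5 FPKM in control and 625, 521, 444, 765 and 1772 FPKM in COPD, a difference of 6.20 (SE 0.45). Cxcl2 rose by 5.90, and Prok2, a small secreted ligand of G-protein-coupled receptors that neutrophils carry, by 6.07. Ebi3, a subunit of interleukins 27 and 35, rose by 5.65. The remaining places among the 20 largest rises went to Mt2A, Ifit1, Ifitm6, Ifit1bl, F2rl2, Serpinb1a, Ltb4r, Clec4b2, Orm1, Il1r2, Mmp8 and the unnamed locus AC128848.1, with Csf3r, Cxcr2 and the calprotectin genes. Il6, named here after its values were seen, stood at 0 to 0.525 FPKM in control and 12.1 to 98 in COPD.

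Receptors of cytokines went both ways. Of 41 receptors and antagonists, 20 were higher and 10 lower after scaling (median 0.57), and 11 and 20 as deposited (median -0.31). The shares after scaling were 48.8% higher and 24.4% lower, beside 30.0% and 32.6% of all genes. As deposited they were 26.8% and 48.8%, beside 8.23% and 66.4%, so the list held more genes higher than all genes did under both readings. Beside Csf3r, the shared beta chain Csf2rb rose by 3.08. Both natural brakes on interleukin 1 rose: Il1r2, a decoy receptor with no signalling domain, stood at 4.25, 1.70, 1.14, 1.04 and 1.76 FPKM in control and 217, 430, 202, 344 and 277 FPKM in COPD, and Il1rn, the secreted antagonist, rose by 5.10 (SE 0.28) from 7.95 to 19.3 FPKM in control to 163 to 498 in COPD. Il1r1, the signalling receptor, was at 0.48 after scaling and at -0.38 as deposited, where the call was lost without any 1 of COPD 1, COPD 5 and control 1, 3, 4 and 5 (-0.40 to -0.28). Il1b itself rose by 5.02. Lifr, the receptor of leukaemia inhibitory factor, fell by 3.23 and Tgfbr2 fell by 1.94.

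Intracellular brakes on cytokine and Toll-like receptor signalling were mostly higher. Of 31 feedback inhibitors, 21 were higher and 2 lower after scaling, beside 30.0% and 32.6% of all genes (median 1.30). The values as deposited gave 13 and 4, and 10 lower without COPD 5. Bcl3 rose by 3.82, the RNase Zc3h12a by 3.28, Irak3, a kinase-dead inhibitor of Toll-like receptor signalling, by 2.98, Tnip1 by 2.71 and Socs3 by 1.89. Tnfaip3 was not called as deposited (-0.30, adjusted p = 0.63) and was at 0.59 after scaling (adjusted p = 0.40), and without COPD 5 it was lower as deposited (-0.97, adjusted p = 0.0078). The phosphatases Dusp4 and Dusp5, which act on MAP kinases, fell by 1.85 and 0.70. Among 49 transcription factors of inflammation and stress, 21 were higher and 7 lower after scaling (median 0.56), and 12 and 17 as deposited (median -0.27, and 26 lower without COPD 5). Cebpb, which drives emergency granulopoiesis and acute-phase genes, stood at 57.0 to 136 FPKM in control and 281 to 789 in COPD, a difference of 3.55 (SE 0.36, adjusted p = 6.6e-07). Nfkb2 rose by 2.76, Irf7 by 3.74 and Batf by 3.35. Stat3 differed by 0.00 as deposited and by 0.91 after scaling, and without COPD 5 by -0.39 and 0.47.

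The upstream regions of 2 inducible cytokines and 2 interferon-regulated genes are shown because these genes rose and because a textbook binding sequence lies in each. The sequences are from RefSeq, build GRCr8, and cover part of the 250 bases before the annotated start, written 5′ to 3′ on the strand of the gene, with the matched motif in capitals. The NF-kB-type motif is GGGA and TTTCC with any 1 base between them, and the interferon-response-type motif is GAAA and GAAA with any 2 bases between them, each searched on both strands.
Cxcl1 (chr14:17479356-17479445, minus strand): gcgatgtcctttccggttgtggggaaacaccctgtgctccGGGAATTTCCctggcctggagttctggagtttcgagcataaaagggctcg
Il6 (chr4:5894594-5894683, minus strand): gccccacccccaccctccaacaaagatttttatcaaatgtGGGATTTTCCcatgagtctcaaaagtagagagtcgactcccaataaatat
Cxcl10 (chr14:15988816-15988872, plus strand): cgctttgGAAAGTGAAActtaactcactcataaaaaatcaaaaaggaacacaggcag
Irf7 (chr1:205800043-205800132, minus strand): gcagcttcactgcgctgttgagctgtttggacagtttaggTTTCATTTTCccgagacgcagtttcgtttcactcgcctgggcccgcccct
The match begins 84 bases before the start in Cxcl1, 68 in Il6, 243 in Cxcl10 and 69 in Irf7, where it reads on the opposite strand. Over all 33469 promoters of the table, the first motif occurred in 0.314% and the second in 3.41% of the 250-base upstream windows. Of 167 genes named in the text with a promoter there, many of them chosen from these data, 6 held the first and 12 the second. The first was also found in Tnfaip3, which was not called, and the second in Plau, Selenop and Vegfa, which fell. A match describes the letters of the window and no binding was measured.

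Genes of metal handling were mostly higher after scaling. Of 22 genes of metallothioneins, zinc and iron, 13 were higher and 5 lower after scaling, and 10 and 8 as deposited. The shares after scaling were 59.1% and 22.7%, beside 30.0% and 32.6% of all genes. As deposited they were 45.5% and 36.4%, beside 8.23% and 66.4%. Mt2A, a small zinc-binding protein, stood at 139, 26.8, 40.3, 44.98 and 58.5 FPKM in control and 2625, 2423, 1398, 3158 and 12955 FPKM in COPD, a difference of 6.85 (SE 0.57, adjusted p = 9.8e-08). Mt1 rose by 4.98, the metalloreductase Steap4 by 5.13 and the zinc importer Slc39a14, which interleukin 6 is known to induce, by 2.68. The epithelial zinc importer Slc39a4 fell by 0.81 and the ferritin receptor Ncoa4 fell by 0.69.

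Antioxidant genes did not move as a block. Of 31 genes of NRF2 targets, thiol and peroxide defence, 17 were higher and 5 lower after scaling, and 8 and 15 as deposited (medians 0.54 and -0.38). The shares after scaling were 54.8% and 16.1%, beside 30.0% and 32.6% of all genes. As deposited they were 25.8% and 48.4%, beside 8.23% and 66.4%. The mitochondrial superoxide dismutase Sod2 stood at 54.7, 56.0, 63.3, 73.6 and 80.5 FPKM in control and 634, 635, 464, 473 and 1774 FPKM in COPD, a difference of 4.31 (SE 0.32, adjusted p = 2.9e-08). The extracellular enzyme Sod3 went the other way, at 69.8 to 92.6 FPKM in control and 6.91 to 35.4 in COPD (-1.13 after scaling, SE 0.31, adjusted p = 0.0052). Peroxiredoxins split likewise: Prdx5 rose by 3.35 (SE 0.21) and Prdx6, a peroxidase with phospholipase activity in surfactant turnover, fell by 1.18 (SE 0.21). The classical NRF2 target Hmox1 rose by 2.29 (SE 0.14), from 28.1 to 41.0 FPKM in control to 77.3 to 104 in COPD. Gclc, which makes the rate-limiting subunit of glutathione synthesis, was lower as deposited (-0.82) and at 0.04 after scaling (adjusted p = 0.90).

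Genes of enzymes that metabolise xenobiotics were mostly lower in the model. Of 35 measured, none (1 without COPD 5) was higher as deposited and 30 were lower (median -1.73), and 5 were higher and 21 lower after scaling (median -0.95). Long housekeeping transcripts had medians of -1.58 and -0.84. Fmo2, which is abundant in rodent lung, stood at 580, 997, 970, 996 and 979 FPKM in control and 7.67, 16.002, 34.2, 9.54 and 123 FPKM in COPD, a difference of -4.35 (SE 0.54, adjusted p = 5.0e-06). Cyp2f4, a cytochrome P450 of airway club cells, stood at 25.4 to 94.7 FPKM in control and 0.235 to 3.46 in COPD (-4.08, SE 0.48). Cyp2e1 fell by 3.92 and Cyp2b1 fell by 2.67. Cyp1a1, the classical target of the aryl hydrocarbon receptor, which smoke constituents activate, stood at 14.4, 5.67, 8.14, 3.82 and 1.12 FPKM in control and 0.0918, 0.108, 0.356, 0.170 and 0.137 FPKM in COPD, a difference of -2.02 (SE 0.37, adjusted p = 0.00021) without overlap. Cyp1b1, another target of that receptor, was not called as deposited (0.03) and was at 0.77 after scaling.

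Genes of reactive oxygen and nitric oxide synthesis in phagocytes were mostly higher after scaling, and more often higher than all genes under both readings. Of 21, 13 were higher and 4 lower after scaling, and 8 and 5 as deposited. These were 61.9% and 19.0% after scaling, beside 30.0% and 32.6% of all genes, and 38.1% and 23.8% as deposited, beside 8.23% and 66.4%. Nos2, the inducible nitric oxide synthase, stood at 0.106 to 0.271 FPKM in control and 2.87, 3.08, 1.97, 4.21 and 32.6 FPKM in COPD. The oxidase subunits Ncf1 and Ncf4 rose by 2.53 and 3.01 and the GTPase Rac2 by 2.89, while the catalytic subunit Cybb was at 0.05 as deposited and 0.96 after scaling. Hvcn1, a proton channel that supports the oxidase, fell by 1.63.

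Lipid mediator genes moved both ways. Of 27 genes of prostaglandins and leukotrienes, 13 were higher and 6 lower after scaling, and 8 and 14 as deposited. The shares after scaling were 48.1% and 22.2%, beside 30.0% and 32.6% of all genes. As deposited they were 29.6% and 51.9%, beside 8.23% and 66.4%. Ltb4r, the receptor by which leukotriene B4 attracts neutrophils, stood at 0.224 to 1.11 FPKM in control and 38.2, 78.0, 36.5, 52.1 and 31.9 FPKM in COPD, a difference of 5.54 (SE 0.18, adjusted p = 7.3e-12). The secreted phospholipase Pla2g2a rose by 5.34, the platelet-activating-factor hydrolase Pla2g7 by 4.28, Alox5ap, the partner of 5-lipoxygenase, by 3.06, and the inducible cyclooxygenase Ptgs2 by 2.14. Hpgd, which inactivates prostaglandins, stood at 27.3 to 36.0 FPKM in control and 1.78, 3.31, 5.97, 2.56 and 0.475 FPKM in COPD (-2.53, SE 0.29). The transporter Abcc4, which exports prostaglandins, fell by 1.22. Alox5 was at -0.07 as deposited and 0.83 after scaling.

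Matrix proteases and their inhibitors went both ways. Of 28, 12 were higher and 11 lower after scaling, and 9 and 16 as deposited. As shares this was 42.9% and 39.3% after scaling, beside 30.0% and 32.6% of all genes, and 32.1% and 57.1% as deposited, beside 8.23% and 66.4%. Mmp9, a gelatinase of neutrophil granules, stood at 0.249 to 1.30 FPKM in control and 31.0, 49.8, 26.1, 61.0 and 56.9 FPKM in COPD (5.35, SE 0.24). Mmp12, the macrophage elastase, was lower in COPD: it stood at 2.41, 2.11, 5.24, 2.33 and 6.40 FPKM in control and 0.0451, 0.676, 0.569, 0.05004 and 1.74 FPKM in COPD, a difference of -1.07 after scaling (SE 0.35, adjusted p = 0.013). Among the inhibitors, Timp1 rose by 4.21 (SE 0.37) from 26.1 to 55.7 FPKM to 185 to 847 FPKM, and Serpinb1a, an intracellular inhibitor of neutrophil serine proteases, rose by 5.63. Timp3, the inhibitor that binds to matrix, stood at 403, 836, 930, 826 and 877 FPKM in control and 21.1, 16.2, 28.7, 15.7 and 64.1 FPKM in COPD, a difference of -3.92 (SE 0.37, adjusted p = 3.1e-07). The membrane-bound inhibitor Reck fell by 2.46. No COPD library of Timp3 or Reck reached the lowest control library.

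Genes of coagulation and fibrinolysis moved both ways. Of 23, 10 were higher and 8 lower after scaling, and 8 and 11 as deposited. These were 43.5% and 34.8% after scaling, beside 30.0% and 32.6% of all genes, and 34.8% and 47.8% as deposited, beside 8.23% and 66.4%. F2rl2, a thrombin receptor, rose by 5.69 and Procr, the receptor of protein C, by 2.97. The urokinase receptor Plaur rose by 2.92 and its ligand Plau, urokinase, fell: Plau stood at 17.1 to 21.0 FPKM in control and 0.717 to 1.70 in COPD (-2.63, SE 0.21, adjusted p = 8.2e-08). Vwf, von Willebrand factor of endothelium and platelets, fell by 1.63. F3, tissue factor, was not called, at -0.15 as deposited and 0.78 after scaling (adjusted p = 0.69 and 0.065), and was called after scaling without COPD 2 (0.92), COPD 3 (1.03) or control 1 (0.93).

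Of 27 genes of complement, 10 were higher and 9 lower after scaling, and 7 and 17 as deposited. The shares of 37.0% and 33.3% after scaling and of 63.0% lower as deposited were near those of all genes (30.0%, 32.6% and 66.4%). C3 rose by 2.68 (SE 0.25), properdin, Cfp, by 2.70 and the anaphylatoxin receptor C5ar1 by 2.65, while C5 fell by 1.502 and the second C5a receptor, C5ar2, fell by 1.37. The scaled call of C5 was lost without any 1 of COPD 1, COPD 4 and control 2 to 5 (-1.51 to -1.12). C5ar1 stood at 83.4, 148, 126 and 130 FPKM in COPD 1 to 4 and at 28.9 FPKM in COPD 5, within the control range of 20.3 to 31.8.

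Genes of antigen-presenting cells were mostly lower. Of 19 genes of dendritic cells and MHC class II, 2 were higher and 13 lower after scaling, and none and 17 as deposited (medians -1.03 and -1.78). As shares, 68.4% and 89.5% were lower, beside 32.6% and 66.4% of all genes. Long housekeeping transcripts had medians of -0.84 and -1.58, with 75.6% and 100% lower. Flt3, the growth factor receptor of dendritic cells, stood at 8.55, 6.39, 8.70, 7.0004 and 7.84 FPKM in control and 0.188, 0.284, 0.417, 0.298 and 0.121 FPKM in COPD, a difference of -2.31 (SE 0.20, adjusted p = 1.5e-07). The class II genes RT1-Ba and RT1-Bb fell by 1.996 and 1.96, Cd74, the invariant chain, by 0.98 and Clec9a of cross-presenting dendritic cells by 1.36. The call of RT1-Bb after scaling was lost without COPD 2 (-1.61), COPD 4 (-1.54) or control 3 (-1.64). Cd4, which in the rat is carried by T cells and macrophages, fell by 3.14. Class I loading differed: of 34 genes of the proteasome and MHC class I loading, 30 were higher and none lower after scaling (median 1.13, and 2 lower without COPD 5), and 12 and 4 as deposited, with Psme2 at 2.24 and Psmb9 at 2.06. Many proteasome subunits have short transcripts, and the short housekeeping transcripts had a median of 1.32.

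Of 23 markers of resident macrophages, 8 were higher and 9 lower after scaling, and 2 and 14 as deposited. The 8 became 5 without control 2, and the 2 became 5 without COPD 5. The shares of 34.8% and 39.1% after scaling and of 60.9% lower as deposited were near those of all genes (30.0%, 32.6% and 66.4%). The mannose receptor Mrc1 stood at 46.1 to 86.3 FPKM in control and 4.16 to 22.1 in COPD (-1.44, SE 0.29, adjusted p = 0.00043). The fractalkine receptor Cx3cr1 fell by 2.02 and Axl, a receptor for apoptotic cells, by 1.77. Chi3l1, a secreted chitinase-like protein, rose by 4.20 (SE 0.19) from 40.8 to 65.9 FPKM in control to 299 to 672 in COPD, and the lipid carrier Fabp5 rose by 2.28. Among 17 markers of monocytes and recruited macrophages, 9 were higher and 1 lower after scaling, and 7 and 6 as deposited. The inhibitory Fc receptor Fcgr2b rose by 2.95 and the LPS co-receptor Cd14 by 2.08, while lysozyme, Lyz2, fell by 1.14 from a control mean of 14993 FPKM to 4043 FPKM. Of 34 lysosomal genes, 12 were higher and 14 lower after scaling, and none and 21 as deposited, with the phosphatase Acp5 at -2.35, prosaposin, Psap, at -1.49 and cathepsin D, Ctsd, at -1.20. The lysosomal shares were 35.3% and 41.2% after scaling and 61.8% lower as deposited, beside 30.0%, 32.6% and 66.4% of all genes.

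Of 23 genes of B and plasma cells, 4 were higher and 8 lower after scaling, and 2 and 15 as deposited, with a share lower (34.8% and 65.2%) near that of all genes (32.6% and 66.4%). The joining chain Jchain of secreted immunoglobulin fell by 2.09, from 202 to 906 FPKM in control to 18.2 to 89.9 in COPD, and the plasma cell chaperone Mzb1 by 1.36. Cxcr5, the homing receptor of B cells, rose by 1.79. Of 16 genes of natural killer and cytotoxic cells, 4 were higher and 2 lower after scaling, and 1 and 10 as deposited. The 62.5% lower as deposited lay near the 66.4% of all genes, and 12.5% were lower after scaling. Granzyme A, Gzma, rose by 2.29 and the chemokine Ccl5 fell by 0.77.

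Markers of alveolar type 2 cells, which make surfactant, were mostly lower. Of 21 markers, 3 were higher and 12 lower after scaling, and none and 17 as deposited (medians -0.75 and -1.68). As shares, 57.1% and 81.0% were lower, beside 32.6% and 66.4% of all genes. The medians lay near those of long housekeeping transcripts (-0.84 and -1.58), of which 75.6% and 100% were lower. The phosphate transporter Slc34a2 stood at 346, 568, 513, 693 and 752 FPKM in control and 46.4, 62.2, 59.3, 53.0 and 87.5 FPKM in COPD, a difference of -2.26 (SE 0.22, adjusted p = 4.3e-07). The fatty acid desaturases Scd and Scd2 fell by 2.42 and 2.38, the lipid transporter Abca3 fell by 1.71 and the surfactant collectin Sftpd by 1.05. Sftpc, the most cell-specific surfactant protein, was lower as deposited (-1.42, adjusted p = 0.0021) and not called after scaling (-0.49, adjusted p = 0.18). It stood at 9156 to 15268 FPKM in control and at 1842, 7219, 10695, 4764 and 3192 FPKM in COPD, where COPD 3 lay within the control range, and without COPD 3 its scaled value was called (-0.75, adjusted p = 0.027). Of 41 genes of fatty acid and cholesterol metabolism, 11 were higher and 21 lower after scaling, and 2 and 28 as deposited. Those lower made up 51.2% after scaling and 68.3% as deposited, beside 32.6% and 66.4% of all genes. Fasn fell by 0.83 and Cpt1a fell by 1.67, and Plin2, which coats lipid droplets, rose by 1.77.

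Alveolar type 1 cells, the thin cells of gas exchange, had no marker that was higher under either reading. Of 20, 20 were lower as deposited and 19 after scaling (medians -2.64 and -1.75). The proteoglycan Spock2 fell by 3.96 and Rtkn2 by 2.93, while the anchors Ager and Hopx were at -0.72 and -0.32 after scaling, the latter not called. The scaled call of Ager was lost without COPD 1 (-0.49), COPD 4 (-0.61) or control 2 (-0.61), and Hopx was called without COPD 5 (-0.60). Col4a3, the collagen IV chain of the alveolar basement membrane, stood at 12.1 to 25.6 FPKM in control and 0.322 to 1.21 in COPD (-3.08, SE 0.22, adjusted p = 2.6e-08).

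Scgb1a1, the secretoglobin of club cells, was not called under either reading (-0.60 and 0.33, adjusted p = 0.25 and 0.53). It stood at 10674 to 16718 FPKM in control and at 1928, 12836, 10721, 12878 and 14252 FPKM in COPD, with COPD 1 low and the others within the control range. Without COPD 1 its scaled value was 0.80 and called (adjusted p = 0.028). Over 16 secretory markers, 3 were higher and 8 lower after scaling, and 2 and 10 as deposited, and without COPD 1 the 3 became 5. The share lower was 50% after scaling, beside 32.6% of all genes, and 62.5% as deposited, beside 66.4%. Scgb3a2 fell by 1.90 and Aldh1a1 by 2.20, beside Cyp2f4 and Cyp2b1, and the transcription factor Creb3l1 rose by 2.89. Of 21 ciliated cell genes, 2 were higher and 10 lower after scaling, and none and 16 as deposited. Their share lower was 47.6% after scaling and 76.2% as deposited, beside 32.6% and 66.4% of all genes. The largest fall was that of Cfap44, a gene of the axoneme, at -2.58. Several axonemal genes are long, and long housekeeping transcripts had a median of -0.84.

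**Figure D3:**
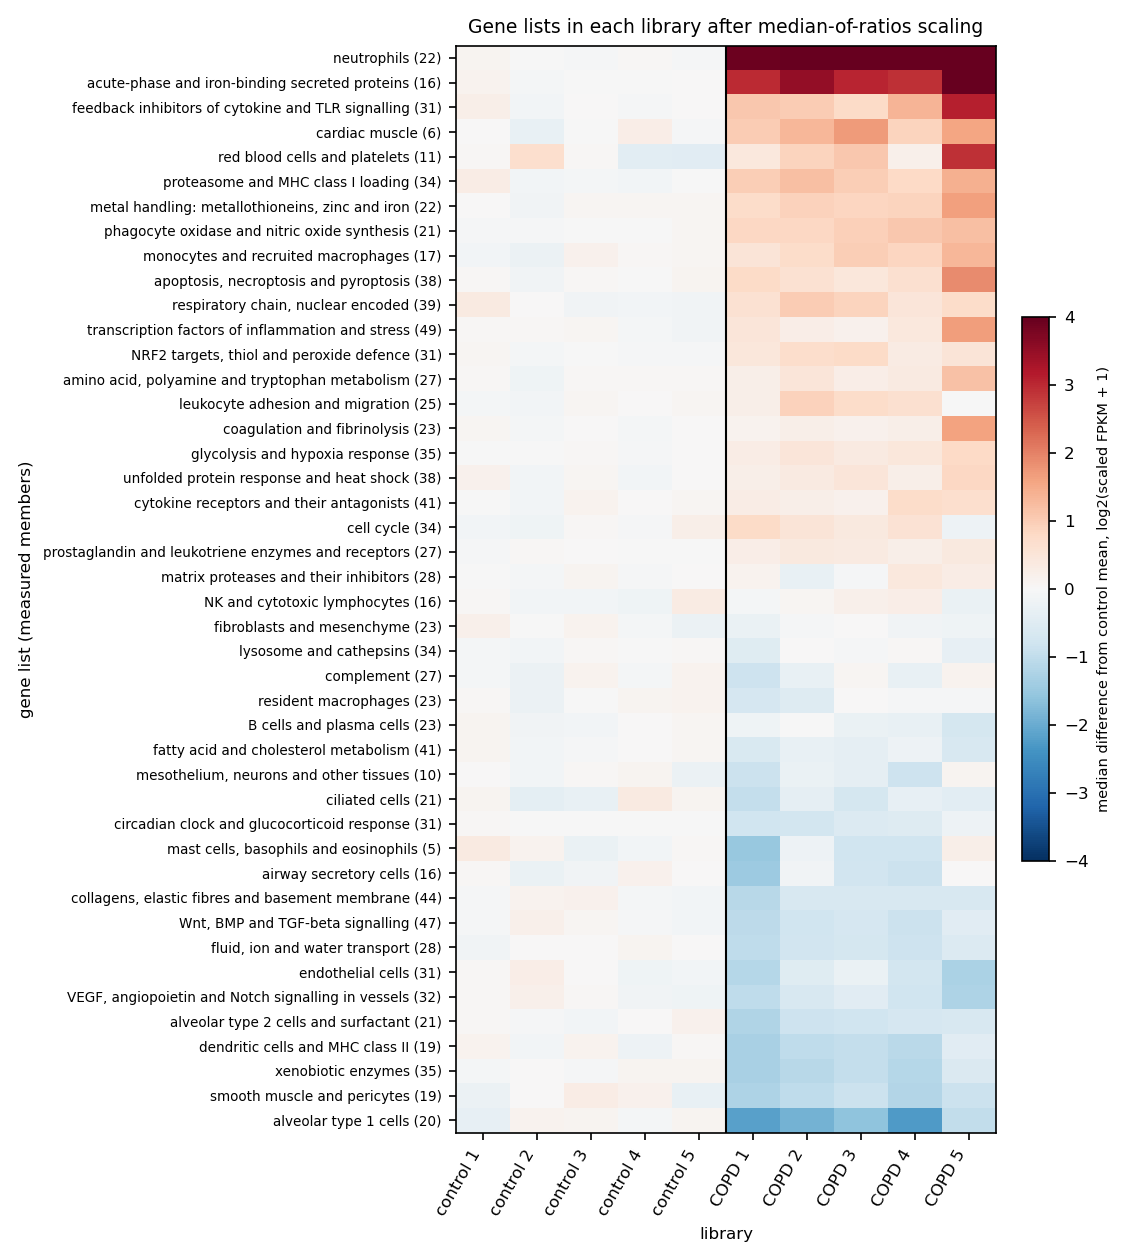
Median difference of each gene list from the control mean, in log2(scaled FPKM + 1), for each of the 10 libraries, with red for higher and blue for lower and the colour scale ending at ±4. Neutrophil markers and acute-phase proteins lead in every COPD library, alveolar type 1 markers are the lowest list in COPD 1 to 4, and COPD 5 is the highest of the COPD libraries for feedback inhibitors (3.10) and for red blood cells and platelets (2.91).

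Of 31 endothelial markers, 4 were higher (7 without COPD 5) and 14 lower after scaling, and 3 and 23 as deposited. The 9.68% higher and 74.2% lower as deposited lay near the 8.23% and 66.4% of all genes. After scaling 12.9% were higher and 45.2% lower, beside 30.0% and 32.6%. Their medians were -0.53 after scaling and -1.33 as deposited, beside -0.84 and -1.58 for long housekeeping transcripts. Selp, P-selectin, on which neutrophils begin to roll, stood at 1.23, 0.767, 0.801, 1.09 and 1.21 FPKM in control and 21.3, 40.2, 22.1, 31.6 and 174 FPKM in COPD, a difference of 5.06 (SE 0.43, adjusted p = 1.3e-07). Vcam1 rose by 2.26. The endothelin receptor Ednrb stood at 29.0 to 66.8 FPKM in control and 0.567 to 4.29 in COPD (-3.59, SE 0.34). Cdh5, the cadherin of endothelial junctions, was at -0.39 after scaling and not called, and was called without COPD 5 (-0.59). Of 25 genes of leukocyte adhesion and migration, 13 were higher and 6 lower after scaling, and 5 and 9 as deposited, with the integrin Itgam at 2.35 and with the junctional molecule F11r at -2.04. The adhesion shares were 52% and 24% after scaling, beside 30.0% and 32.6% of all genes. As deposited they were 20% and 36%, beside 8.23% and 66.4%.

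Genes of growth and patterning signals were mostly lower. Of 32 genes of VEGF, angiopoietin and Notch signalling, 4 were higher and 19 lower after scaling, and 1 and 27 as deposited. Those lower made up 59.4% after scaling and 84.4% as deposited (medians -0.83 and -1.65), beside 32.6% and 66.4% of all genes. Vegfa stood at 409 to 581 FPKM in control and 44.1, 96.6, 102, 102 and 102 FPKM in COPD (-1.53, SE 0.18, adjusted p = 3.7e-06). The Notch target Hey1 stood at 42.4, 46.8, 59.7, 37.1 and 51.9 FPKM in control and 1.89, 1.36, 4.502, 2.86 and 0.541 FPKM in COPD (-3.29, SE 0.29). Angptl4, which inhibits lipoprotein lipase, was the member that rose, by 3.44. Of 47 genes of Wnt, BMP and TGF-beta signalling, 3 were higher and 31 lower after scaling, and 1 and 42 as deposited (medians -0.72 and -1.49). Here the share lower was 66.0% after scaling and 89.4% as deposited. The medians of both lists lay near those of long housekeeping transcripts (-0.84 and -1.58), of which 75.6% and 100% were lower. Axin2, a feedback target of Wnt signalling, fell by 2.23, the secreted Wnt inhibitor Wif1 fell by 2.30, the receptor Fzd7 fell by 2.28 and the receptor Fzd2 fell by 2.21. Tgfb1 was lower as deposited (-0.80) and at 0.10 after scaling (adjusted p = 0.41).

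Matrix genes and markers of smooth muscle were mostly lower. Of 44 collagens, elastic fibre and basement membrane genes, 5 were higher and 26 lower after scaling, and 2 and 37 as deposited (medians -0.66 and -1.47). Elastin, Eln, fell by 1.37 (0.89 without COPD 5), Col4a2 by 1.89 and Fbln5, needed to assemble elastic fibres, fell by 1.74. The exceptions that rose were the proteoglycans versican, Vcan, by 3.15 (0.423 to 1.46 FPKM in control and 4.26 to 15.2 in COPD) and decorin, Dcn, by 1.70. Dcn stood at 89.1, 103, 134 and 86.1 FPKM in COPD 1 to 4 and 43.2 FPKM in COPD 5, with controls at 42.3 to 60.7. Of 19 markers of smooth muscle and pericytes, none was higher under either reading, 18 were lower as deposited and 15 after scaling, and without COPD 1, COPD 2 or COPD 4 a single member was higher after scaling. Long housekeeping transcripts were near this: 75.6% were lower after scaling, beside 78.9% of these markers. Their median was -0.84, beside -0.99 for the smooth muscle markers and -0.66 for the matrix genes. Notch3 was at -2.47, Myh11 at -0.92 and Acta2 at -0.60 after scaling, the last with a call that was lost without any 1 of COPD 1 to 5 and control 2 to 4 (-0.65 to -0.48). Of 23 fibroblast markers, 5 were higher and 6 lower after scaling, and 2 and 14 as deposited, so the share lower (26.1% and 60.9%) was no larger than that over all genes (32.6% and 66.4%). Ccn2, the connective tissue growth factor and none of these markers, fell by 3.10.

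Genes of fluid, ion and water transport were mostly lower. Of 28 transport genes, 3 were higher and 16 lower after scaling, and 2 and 23 as deposited. The share lower was 57.1% after scaling and 82.1% as deposited, beside 32.6% and 66.4% of all genes. Their medians (-0.77 and -1.51) lay near those of long housekeeping transcripts (-0.84 and -1.58), of which 75.6% and 100% were lower. The water channel Aqp1 of capillaries stood at 111 to 166 FPKM in control and 7.48 to 18.9 in COPD (-2.72, SE 0.18, adjusted p = 9.6e-09), Aqp5 of type 1 cells fell by 1.37 and the sodium channel subunit Scnn1a by 1.44. The potassium channel Kcnj15 fell by 3.36. The neutral solute channel Aqp9 and the anion exchanger Slc26a4 rose by 3.96 and 3.02.

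Among the 20 largest falls were also Mamdc2, Ptprb, Islr, Selenop, Hyal1, Ighv1-58, Susd2 and the unnamed locus AC109901.2. Selenop, the selenium carrier of plasma, stood at 1751 to 2548 FPKM in control and 60.7 to 197 in COPD (-3.20, SE 0.30, adjusted p = 2.7e-07). Ptprb, a phosphatase of endothelium, fell by 3.25 and Hyal1, a hyaluronidase, by 3.20.

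Genes of the circadian clock and the glucocorticoid response were mostly lower. Of 31, 6 were higher and 17 lower after scaling, and 2 and 23 as deposited. The 74.2% lower as deposited lay near the 66.4% of all genes, and 54.8% were lower after scaling, beside 32.6%. Their medians were -0.64 after scaling and -1.51 as deposited, beside -0.84 and -1.58 for long housekeeping transcripts. The period gene Per3 stood at 34.2 to 39.8 FPKM in control and 0.961, 2.75, 3.995, 4.21 and 6.16 FPKM in COPD (-2.34, SE 0.29, adjusted p = 4.8e-06). The output factor Tef fell by 2.11 and Zbtb16, a glucocorticoid-induced factor, by 2.88, while Nfil3, which opposes Tef at the same DNA sequences, rose by 2.95 (SE 0.27). Fkbp5, another glucocorticoid target, was at -0.31 after scaling and not called, and at -0.54 without COPD 5 (adjusted p = 0.0087). The labels do not say at what time of day lungs were taken.

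Of 35 genes of glycolysis and the hypoxia response, 21 were higher and 7 lower after scaling, and 8 and 14 as deposited. The lactate exporter Slc16a3 stood at 5.11 to 7.13 FPKM in control and 69.3, 80.4, 56.1, 69.8 and 25.5 FPKM in COPD (3.92, SE 0.22). The hexokinases Hk3 and Hk2 rose by 2.80 and 2.22 and pyruvate kinase, Pkm, by 1.85, and Pdk4, which restrains pyruvate oxidation, fell by 1.67. Of 39 nuclear genes of the respiratory chain, 30 were higher and 2 lower after scaling (median 0.78), and 8 and 14 as deposited. Its short subunit genes Cox7b and Ndufb7 were at 2.84 and 1.88, while Sdha was at -0.19, not called (called at -0.20 without COPD 5), and Uqcrc2 and Atp5f1a fell by 0.98 and 0.55. The 7 mitochondrially encoded genes among the 10 most abundant of COPD lung, led by Mt-co1, rose by 3.86 (Mt-nd1) to 4.10 (Mt-co1) after scaling.

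Of 27 genes of amino acid, polyamine and tryptophan metabolism, 13 were higher and 3 lower after scaling, and 4 and 11 as deposited (medians 0.43 and -0.45). Bcat1, the cytosolic branched-chain aminotransferase, stood at 5.50, 3.74, 7.34, 7.96 and 6.74 FPKM in control and 40.6, 74.0, 54.4, 83.6 and 69.4 FPKM in COPD, a difference of 4.02 (SE 0.21, adjusted p = 1.0e-09). Sat1, which acetylates polyamines, rose by 1.92 and the mitochondrial folate enzyme Mthfd2 by 1.88. The neutral amino acid transporter Slc1a4 fell by 1.67, from 7.67 to 11.8 FPKM in control to 0.806 to 1.82 in COPD. Slc7a2, a transporter of arginine, stood at 0.505 to 0.747 FPKM in COPD 1 to 4 and at 15.8 FPKM in COPD 5, within the control range of 8.38 to 23.5.

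Of 38 genes of cell death, 23 were higher and 6 lower after scaling, and 12 and 13 as deposited. Birc3 rose by 3.76, Ripk3 of necroptosis by 2.98, the BH3-only genes Pmaip1 and Bid by 2.99 and 2.68 and Nlrp3 of the inflammasome by 2.31, and Bmf fell by 1.51. Of 38 genes of the unfolded protein response and heat shock, 18 were higher and 5 lower (9 without COPD 5) after scaling, and 5 and 19 as deposited, with Atf4 at 1.87, Ddit3 at 1.81 and Herpud1 at -1.03. Of 34 cell cycle genes, 15 were higher and 1 lower after scaling, and 4 and 13 as deposited, and without COPD 5 the 15 became 23. The stress-induced Gadd45a and Gadd45g rose by 3.51 and 2.58, and Mki67, the proliferation antigen, was not called (-0.30 and 0.33) except after scaling without COPD 5 (0.58).

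Some RNA of other tissues was looked for. Of 20 cardiac muscle genes listed, 6 passed the filter, of which 4 were higher and 1 lower after scaling, and 3 and 2 as deposited. The 2 became 1 without COPD 1, COPD 4, control 1 or control 4. Tnnc1, Myl4 and Tnni3 rose by 3.18, 2.37 and 2.17, and Actc1, the cardiac actin, fell by 1.31. The summed level of the 6 was 18.6 to 35.1 FPKM in control and 31.0 to 47.8 in COPD, and Myh6 did not pass 0.108 FPKM. Nppb was listed at 0 in all 10 libraries, and so were Fth1, Psme1 and Cldn5, which lung cells use, so a listed 0 does not show that a gene was silent. Of 11 genes of red cells and platelets, 5 were higher and none lower after scaling, and 1 and none as deposited. The 5 became 3 without COPD 3, COPD 5 or control 1, 3 or 5 and 2 without control 4, and the 1 became 0 without COPD 2, COPD 3, COPD 5 or control 1, 4 or 5. The haemoglobin chain Hba-a2 stood at 87.9, 1522, 528, 169 and 228 FPKM in control and 499.98, 999, 1078, 334 and 3694 FPKM in COPD, so the groups overlapped, and its call as deposited (1.58) was lost without any 1 of COPD 2, 3 and 5 and control 1, 4 and 5 (1.08 to 1.55). Upk3b of mesothelium fell by 1.42, and Kit, the receptor of mast cells and some other cells, fell by 2.35, from 40.01 to 56.3 FPKM in control to 2.48 to 8.02 in COPD. The part of blood in the gene results was not tested.

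In 853 genes, 6.48% of those tested, COPD 5 lay apart from the other COPD libraries by Dixon's criterion, against 0.364 to 1.25% for COPD 1 to 4 and at most 4.62% for a control library. The 8 called genes with the widest spread among COPD libraries were Cxcl10, Retnlg, Tfpi2, Ccl20, Ubd, Isg15 and the unnamed loci AABR07015066.1 and AABR07030793.1. Cxcl10, a chemokine for T cells and natural killer cells, stood at 26.3, 35.1, 30.5, 25.7 and 8823 FPKM in COPD 1 to 5 and at 5.004 to 27.3 FPKM in control. Isg15, a ubiquitin-like protein induced by interferon, stood at 30.1, 83.6, 54.0, 38.4 and 1200 FPKM in COPD and 6.20 to 12.6 in control. Ubd, a ubiquitin-like protein induced by interferon gamma and TNF, stood at 45.3, 15.6, 13.3, 28.6 and 554 FPKM. Ccl20, a ligand of CCR6, stood at 7.49, 23.1, 14.4, 7.85 and 338 FPKM and Tfpi2, a secreted protease inhibitor, at 12.2, 8.73, 4.45, 9.90 and 282 FPKM. COPD 5 was the highest library of the 10 in these 5 genes, while in Isg15, Ccl20 and Tfpi2 the other 4 COPD libraries also lay above every control library. The locus AABR07030793.1 went the other way, at 23.2 to 95.8 FPKM in COPD 1 to 4 and 2.54 FPKM in COPD 5. Irf7 stood at 86.7 to 124 FPKM in COPD 1 to 4 and 904 FPKM in COPD 5, and Gbp2, an interferon-induced GTPase named after its values were seen, at 54.0 to 82.9 and 1360 FPKM. Ngp, a granule protein gene of neutrophil precursors, stood at 0 to 0.427 FPKM in COPD 1 to 4 and 349 FPKM in COPD 5, and was not called (as deposited it was called lower without COPD 5, at -0.98). COPD 5 was lower than the other 4 in Pla2g7 (16.1 FPKM against 79.4 to 181) and in C5ar1.

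**Figure D4:**
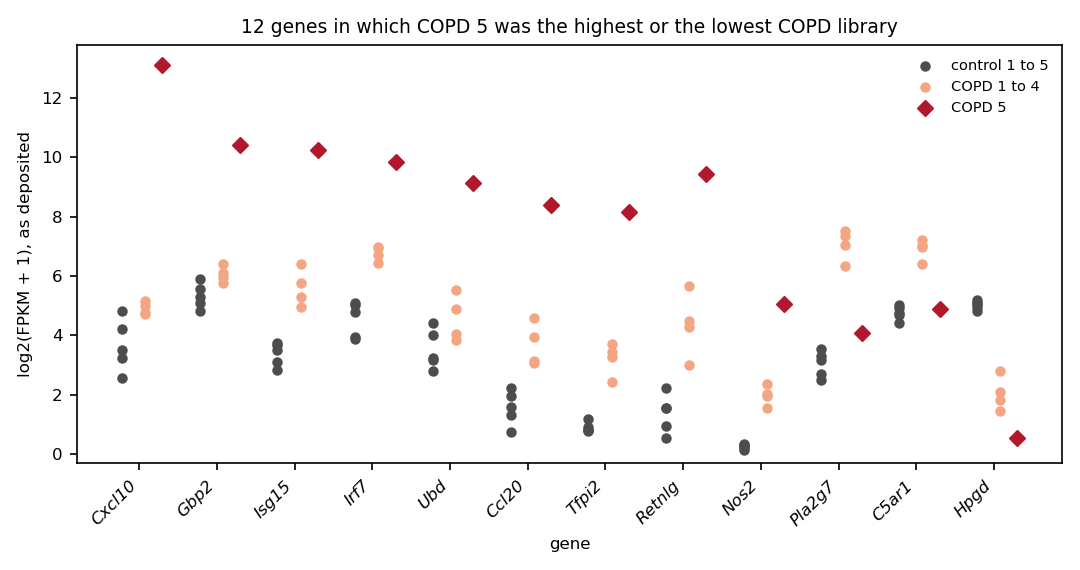
Levels of 12 genes as log2(FPKM + 1), as deposited, in the 5 control libraries (grey), COPD 1 to 4 (orange) and COPD 5 (red diamonds). Cxcl10 reaches 8823 FPKM in COPD 5 against 25.7 to 35.1 in COPD 1 to 4, while Pla2g7, C5ar1 and Hpgd are lower in COPD 5 than in the other COPD libraries.

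Across all tested genes, 5370 (40.8%) had groups that did not overlap after scaling, and 3197 did not overlap, on the same side, under both readings. Of 206 genes named here that both readings called, some of them chosen for not overlapping, 172 did not overlap under both readings and 34 overlapped under at least 1, among them Mmp12, Cd14, Sod3, Tgfbr2, Vcam1, Cxcl10 and Ubd. Without COPD 5, Cxcl10 differed by 2.06 after scaling (3.75 with it), Ubd by 1.87 (2.83 with it) and Gbp2 by 1.59 (2.51 with it), all still called. As deposited, the call of Cxcl10 (2.87) was lost without control 1, 2, 3 or 4 (2.60 to 3.01) and that of Gbp2 (1.596) without control 2, 3 or 4 (1.47 to 1.58). Without COPD 1 and COPD 5 together, an alternative chosen after seeing the data, Ubd was no longer called as deposited (0.73, adjusted p = 0.056), and 5000 of the 5380 genes called under both readings were still called.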

How the data were processed

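RNA of rat lung was sequenced in 15 libraries, of which 5 COPD and 5 control libraries were compared. Per the labels, RNA was extracted with TRIzol and 1 ug was made into libraries with an NEBNext Ultra kit. Per the submitters' processing notes, cutadapt, HISAT2 and StringTie were used with build Rnor_6.0, with no versions stated. The authors deposited FPKM per gene and library, 1 column for each sample, and the read totals were not analysed here. FPKM are relative within a library, so a rise of a few abundant genes lowers all others, which is why both readings are given.

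Genes with 1 FPKM or more in at least 5 of the 15 libraries were fitted as log2(FPKM + 1) in limma 3.58.1 (R 4.3.3, eBayes with trend, all 15 libraries, no covariate), with Benjamini-Hochberg adjustment. Median-of-ratios factors came from 12642 genes above 0 in all libraries. No gene list was tested as a set. The script was tested on simulated data for this comparison with 13172 genes. It called 64 of 67 genes changed by 1 log2 unit, 37 of 67 changed by 0.5 and 5 of 12972 unchanged ones. The simulated spread was that of the control and decoction libraries, without that of the COPD libraries, and few genes were changed, none of them low. These rates therefore need not hold in the real comparison, where far more genes were called. The members and lists were chosen with earlier results of these data known. Named genes were the 20 largest rises and falls without overlap, members of each list with the largest changes or against its majority, 2 set members of each list, the most abundant genes and those near 0 in 1 group, and not every gene that the rule gives is printed. Figures and descriptive counts were made in Python 3.11.15 with pandas 2.3.3, scipy 1.17.1 and matplotlib 3.10.9. Alternatives covered the pseudocount, the filter, the scaling, the variance model, the replicate number, a fit without the decoction libraries and each library left out.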

Additional observations from a re-analysis of the deposited data

Results flagged for a closer look

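In 45 of 458 tests, 1 library lay apart from the other 4 of its group by Dixon's criterion (critical value 0.71, passed by chance in about 1 in 20 tests). Most tests were of genes named here, some of them chosen for their spread among COPD libraries or after their values were seen. The 45 can therefore not be set against the chance rate. COPD 5 gave 21 of the 45, control 1 gave 17, COPD 1 and COPD 3 gave 3 and 1, and controls 2 and 3 gave 2 and 1.

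COPD 5 lay above the other COPD libraries in Cxcl10 (8823 FPKM), Gbp2 (1360), Isg15 (1200), Irf7 (904), Ifit1 (879) and Ifit1bl (723). It also lay above them in Ccl20 (338 FPKM), Nos2 (32.6), Stat3 (178), Tnip1 (561), Sod2 (1774) and Tfpi2 (282). The same held for Ngp (349 FPKM), Hk2 (36.4), Slc7a2 (15.8), Spock2 (12) and Plau (1.70). It lay below them in Cfp (31.2 FPKM), Ncf4 (19.1), Plin2 (66.9) and Mki67 (0.580).

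COPD 1 lay below the other COPD libraries in Scgb1a1 (1928 FPKM), Vegfa (44.1) and the zinc importer Slc39a4 (14.7). COPD 3 lay above the others in Ighv1-58 (2.51 FPKM), a segment of the immunoglobulin heavy chain.

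Control 1 lay above the other controls in Axl (65.0 FPKM), Gadd45a (102), Ncf1 (29.4), Prdx5 (194), Psmb9 (56.7), Sat1 (365), Scd2 (240) and Tnni3 (11.3). It lay below them in Fmo2 (580 FPKM), Timp3 (403), Slc39a4 (66.6), C3 (26.7), Tgfbr2 (26.7), Cpt1a (12.8), Lifr (9.62), Dync1h1 (5.76) and Angptl4 (0.788). Control 2 was high in Ager (1722 FPKM) and Hopx (864), and control 3 in Csf3 (0.0637 FPKM).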

How the results depend on the processing

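The scaling of the libraries moved the counts of called genes more than any other choice tried. As deposited, 1084 genes were higher and 8749 lower, against 3947 and 4296 after median-of-ratios scaling and 3737 and 3893 after quantile normalisation. With a mean of at least 5 FPKM required, which leaves fewer genes to test, 2497 were lower after scaling. No other planned setting moved these 4 counts by over 1.5 times. Leaving out each library in turn gave 954 to 1335 higher and 8392 to 8983 lower as deposited, and 3669 to 4391 higher and 4003 to 4678 lower after scaling. Of the 5380 genes called under both readings, 4937 to 5175 were still called with 1 library left out. When only the 10 libraries were fitted, 4858 were still called. Among the genes named here, 5 then lost their call as deposited and 2 after scaling. With the mean of at least 5 FPKM required, which leaves fewer genes to test, 3391 were still called.

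Of the genes named and called under at least 1 reading, Actb (0.49), Alox5 (0.83), Gclc (0.035), Il1r1 (0.48) and Tgfb1 (0.10) were negative as deposited and positive after median-of-ratios scaling. F3, Mki67, Scgb1a1 and Tnfaip3, called under neither, also changed sign. Alox5 (0.50), Il1r1 (0.38) and Mki67 (0.71) were positive after quantile normalisation. As deposited, Stat3 ran from -0.39 to 0.14 and Ngp from -0.98 to 1.14 over the libraries left out, and Stat3 was at -0.33 without COPD 1 and COPD 5, the alternative added after seeing the data. The cause was not tested. Of 184 counts of list members, 28 moved by over 1.5 times when 1 library was left out, and 19 of these were under 5 members before and after.

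Titles give the groups the same replicate numbers. COPD and control libraries of the same number deviated together weakly (correlations -0.15, 0.08, -0.07, 0.11 and 0.13 for numbers 1 to 5, with 2 of 5 over 0.1), and 3 of 5 correlated best with their own number, so the numbers were not taken as pairs. With the replicate block, 1046 genes were higher and 8701 lower as deposited and 3879 and 4224 after scaling, and 5173 of the 5380 were still called.

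FPKM carry no counts, so the precision of low values is unknown, and genes under 1 FPKM in most libraries were not tested. Transcript length, the mitochondrial share and group cannot be told apart in this design. With 5 libraries in each group, the exact permutation test of the library measures cannot give a p under 0.00794. Smaller p-values of single genes rest on the limma model.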
